A study of Homo sapiens with 66 samples.

Results

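The genes described here are 10 well-known targets of the transcription factor p53, namely CDKN1A, BTG2, MDM2, EDA2R, TP53INP1, TP53I3, SESN1, FDXR, RRM2B and ZMAT3. They were chosen by name, with earlier results of these data known, and all 10 were found among the 20167 genes of the count table. Their levels were followed in 2 multiple myeloma cell lines, AMO-1 WT (AMO1 from here on) and CFZr L363 (L363-CFZr), a subline of L363 cells that is resistant to the proteasome inhibitor carfilzomib (CFZ). The comparisons ask whether the p53 targets stand at the same level in the untreated lines, and whether inhibitors of prolyl-tRNA synthetase move them in the same way in both. RNAseq of 66 libraries covered 22 groups of 3. Both lines received DMSO, the solvent control, or 1 µM of NCP26, NCP22, halofuginone (HFG) or halofuginol for 6 h or 24 h, and AMO1 cells also received CFZ, at a dose that the study's own text states and the labels do not. No group of L363-CFZr cells received CFZ. Every group was grown at the same density, and the 6 h pellets were frozen overnight before RNA extraction while the 24 h pellets stayed on ice, so time and storage cannot be told apart. Each line is a single cell line, the parental L363 line was not analysed here, and the 3 libraries of a group are triplicates, which the study's methods call biological in general and no source ties to separate cultures for these libraries, so p-values measure the spread between these libraries.

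NCP26 is a prolyl-tRNA synthetase inhibitor developed from the pyrazinamide compound NCP22. Halofuginone, a derivative of febrifugine, blocks the same enzyme, and halofuginol is its analogue in which a ketone is reduced to an alcohol. p53 is kept low in unstressed cells by MDM2, a ubiquitin ligase whose gene p53 itself activates, so that the pair form a feedback loop. When p53 is stabilised it raises the transcription of genes that stop the cell cycle, feed repair with nucleotides, buffer oxidants and prepare apoptosis. In multiple myeloma, a cancer of plasma cells, these target genes are often read as a gauge of p53 output, although several of them also answer to other transcription factors.

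Total counts ran from 1666325 to 5761682 in the 36 AMO1 libraries (median 3009496) and from 2487872 to 6596543 in the 30 L363-CFZr libraries. All 7 plasma cell markers (SDC1, XBP1, IRF4, PRDM1, TNFRSF17, SLAMF7 and CD38) averaged at least 5 CPM (counts of a gene scaled to the total of its library) in both lines, with summed levels of 2150 to 4649 CPM in AMO1 libraries and 2029 to 3015 CPM in L363-CFZr libraries. None of the 3 B cell markers and none of the 4 T and myeloid cell markers reached that mean, and their sums stayed at or below 2.73 and 4.47 CPM in AMO1 libraries and 2.61 and 1.35 CPM in L363-CFZr libraries. In these bulk libraries, fewer expressing cells and less RNA per cell cannot be told apart. The title numbers, read with the sample numbers from 1 to 22 that end the column names of the count table, put the libraries in 3 sets. The AMO1 groups at 6 h lie in set 1, as do AMO1 cells with DMSO for 24 h, whereas the other AMO1 groups at 24 h lie in set 2, except for 1 of the 3 CFZ libraries. L363-CFZr cells with DMSO or NCP26 for 6 h lie in set 2, with 2 of the 3 NCP22 libraries, and all other L363-CFZr libraries in set 3. The untreated cells of the lines therefore never share a set. The effects of all compounds in AMO1 cells at 6 h and in L363-CFZr cells at 24 h lie within a set. So does the effect of NCP26 in L363-CFZr cells at 6 h. A fit of all 66 libraries with a term for the set is informed on that term only by groups spread over sets. These are AMO1 CFZ 24 h, with 1 library in set 1 and 2 in set 2, and L363-CFZr NCP22 6 h, with 2 in set 2 and 1 in set 3. Values with the set term rest on these few libraries and are a description. A pair of libraries stood apart. Over genes with a mean of at least 5 CPM, log2 CPM of L363-CFZr DMSO 24 h replicate 2 correlated on average at 0.921 with the other libraries of its group. That of AMO1 CFZ 24 h replicate 2 did so at 0.930, against 0.955 to 0.958 for the group mates of both. Where leaving 1 of them out changed which members were called, the result is given with and without it.

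The 10 genes were located by their Ensembl identifiers in GENCODE v44 on GRCh38 and are all protein coding. CDKN1A (ENSG00000124762, chr6:36676460-36687337, plus strand) encodes p21, the inhibitor of cyclin-dependent kinases, and BTG2 (ENSG00000159388, chr1:203305491-203309602, plus strand) an anti-proliferative partner of mRNA deadenylases. MDM2 (ENSG00000135679, chr12:68808177-68845544, plus strand) carries the feedback on p53. EDA2R (ENSG00000131080, chrX:66595637-66639298, minus strand) encodes a receptor of the tumour necrosis factor family, TP53INP1 (ENSG00000164938, minus strand) a stress protein that acts in autophagy and apoptosis, and TP53I3 (ENSG00000115129, chr2:24077433-24085861, minus strand) a quinone oxidoreductase. SESN1 (ENSG00000080546, chr6:108984309-109094846, minus strand) encodes a sestrin, which restrains mTORC1, and FDXR (ENSG00000161513, chr17:74862497-74873031, minus strand) the mitochondrial ferredoxin reductase. RRM2B (ENSG00000048392, minus strand) encodes the p53-inducible subunit of ribonucleotide reductase, which supplies deoxynucleotides for repair, and ZMAT3 (ENSG00000172667, chr3:178960121-179072215, minus strand) an RNA-binding zinc finger protein. MDM2 shares 9.12% of its 31-mers with another annotated gene and ZMAT3 2.17%, so their reads are the most likely of the 10 to be shared with another gene, against at most 0.725% for the others.

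p53 binds a pair of decamers known as the p53 response element, and 3 stretches are shown because they carry decamers of that consensus next to a transcription start of a member. They were read from RefSeq promoter windows of GRCh38.p14, from 250 bases before to 50 bases after each start, which were found for 8 of the 10 members in 16 windows. Capitals mark the decamers.
MDM2: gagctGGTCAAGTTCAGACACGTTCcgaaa
FDXR: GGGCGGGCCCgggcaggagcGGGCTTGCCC
SESN1: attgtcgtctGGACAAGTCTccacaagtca
The MDM2 stretch (chr12:68808918-68808947, plus strand) holds an adjoining pair with 2 mismatches, ends 74 bases before a start with its last decamer, and overlaps no annotated exon. In FDXR (chr17:74872996-74873025, minus strand) 10 bases part the decamers, 1 of which matches exactly, the pair has 2 mismatches and ends 1 base before a start, and it overlaps an exon of other FDXR transcripts. SESN1 (chr6:109009018-109009047, minus strand) has 1 exact decamer that ends 39 bases before a start, outside annotated exons. The consensus equals its own reverse complement, so both strands were covered. Of all 35116 windows, 6.63% held an exact decamer and 2.93% a pair with at most 13 bases between the decamers and at most 2 mismatches. Among the 16 member windows these were 2 and 3, and 2 of the latter are overlapping MDM2 windows with the same pair. A match is a description of letters and not a binding site, and p53 sites outside these windows were not searched.

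In untreated cells the p53 targets stood far lower in L363-CFZr than in AMO1. CDKN1A was read at 440, 433 and 390 CPM in AMO1 cells with DMSO for 6 h and at 4.27, 7.83 and 6.22 CPM in L363-CFZr cells. The ranges lay far apart, and the log2 fold change was -6.12 ± 0.13 (SE; adjusted p = 6.73e-19, edgeR's quasi-likelihood F test, adjusted by the Benjamini-Hochberg method, which gives all adjusted p-values here). MDM2 was read at 556, 515 and 589 CPM in AMO1 cells and at 45, 56.5 and 50.0 CPM in L363-CFZr cells, again with no overlap, and was lower by -3.48 ± 0.09 on the log2 scale (adjusted p = 1.17e-17). EDA2R was read at 27.7, 22.7 and 29 CPM in AMO1 cells and had a count of 0 in all 3 L363-CFZr libraries, so that its level was at least 25.9-fold higher in AMO1 when L363-CFZr is set to a floor of 3 counts per library. The 24 h controls gave 435 EDA2R counts in AMO1 against 2 in L363-CFZr, a ratio of 197 with a 95% counting interval of 54.1 to 1630. EDA2R passed the filter on low counts through its AMO1 libraries, and intervals and floors cover counting error only.

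The other members ranked behind these. At 6 h the log2 difference was -1.89 ± 0.11 for SESN1 and -1.81 ± 0.11 for TP53INP1. For FDXR it was -1.75 ± 0.17, for RRM2B -1.42 ± 0.14 and for ZMAT3 -1.33 ± 0.13. The test called each of them lower in L363-CFZr. BTG2 was the exception. Its 464, 459 and 450 CPM in AMO1 and 488, 483 and 520 CPM in L363-CFZr differed by 0.10 on the log2 scale (95% interval -0.02 to 0.22), and the test did not call it. TP53I3 was read at 1.65, 2.80 and 0.708 CPM in AMO1 and at 0.986, 0.340 and 0.644 CPM in L363-CFZr and was too low to be tested. Leaving aside EDA2R, 7 of 8 members tested were thus lower in L363-CFZr and 0 higher, and 60.2% of all tested genes were called in either direction and 31.3% were lower in L363-CFZr. The median log2 fold change of all 9 members tested, EDA2R included, was -1.81, against -0.01 for all tested genes. In a fit of all 66 libraries with a term for the set, CDKN1A stood at -6.19, MDM2 at -3.81, SESN1 at -1.76, FDXR at -1.42 and RRM2B at -1.22. The same members were called as without the set term, beside 34.5% of all genes. Between the sets of these controls that term rests on the AMO1 CFZ 24 h libraries alone.

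The 24 h controls gave the same count, 7 lower of the 8 tested beside EDA2R, where 39.9% of all genes were called and 20.5% were lower. CDKN1A was read at 347, 420 and 364 CPM in AMO1 and at 10.4, 5.97 and 9.29 CPM in L363-CFZr, a log2 fold change of -5.43 ± 0.21 (adjusted p = 7.72e-06, edgeR). MDM2 differed by -3.46 ± 0.22 and ZMAT3 by -2.58 ± 0.21. The median of all 9 members tested, EDA2R included, was -2.25, against 0.01 for all tested genes. In the fit of all libraries with the set term, CDKN1A stood at -6.39 and MDM2 at -3.78, and RRM2B was no longer called (-0.91, adjusted p = 0.0526, edgeR). That fit called 20.7% of all genes here. Without L363-CFZr DMSO 24 h replicate 2, BTG2 was also called, at -0.19 (adjusted p = 0.00174, edgeR). TP53I3, too low to be tested with all libraries of these groups, passed the filter on low counts there, and its call is left out. MDM4, which encodes a relative of MDM2, was not called at either time. A further 48 p53 targets were listed from general knowledge, with earlier results of these data known, and 43 were tested. Of these, 30 were lower and 3 higher in L363-CFZr at 6 h, and 26 lower and 2 higher at 24 h. The shares of all genes called were 60.2% and 39.9%. Some of the 43, such as GDF15 and PHLDA3, passed the filter on low counts through AMO1 alone. Only a lower call was open to those genes, so the counts are a description. Large differences were found in GDF15, a stress cytokine with 178 counts in AMO1 and 1 in L363-CFZr at 6 h, in PHLDA3, an inhibitor of AKT signalling with 3 counts in L363-CFZr, and in TP63, which is outside that list and had 236 against 4 counts. Their ratios were 217 (38.5 to 8632), 148 (50.2 to 720) and 72.0 (27.8 to 267), with 95% counting intervals in parentheses. At 24 h the ratios of these genes were 276 (49.2 to 10934), 295 (52.6 to 11684) and 104 (44.5 to 323).

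**Figure D1:**
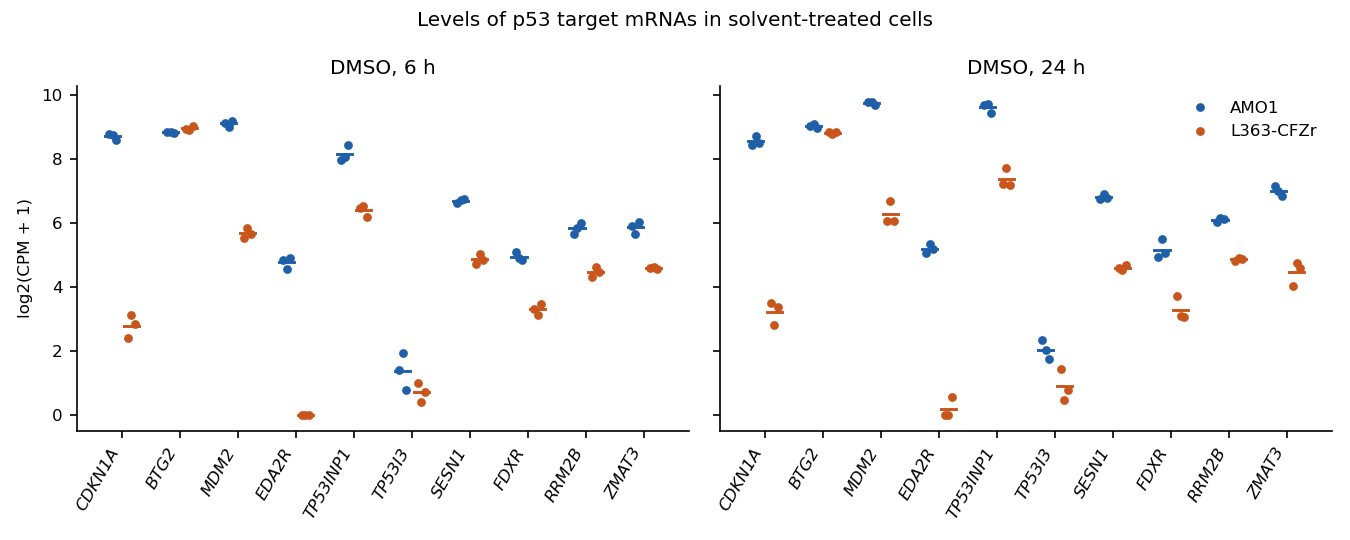
Levels of the 10 p53 targets in cells with DMSO at 6 h and 24 h, as log2(CPM + 1), with 1 point per library and bars at the mean of 3 libraries, AMO1 beside L363-CFZr. CDKN1A, MDM2 and EDA2R show the widest gaps between the lines, BTG2 lies at nearly the same height in both, and levels are not comparable between genes because they are not scaled to length.

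Over all treatments the separation held for some members and not for others. The highest of the 30 L363-CFZr libraries lay below the lowest of the 36 AMO1 libraries for 3 of 10 members, CDKN1A (20.9 against 53.9 CPM), MDM2 (103 against 241 CPM) and EDA2R (1.09 against 4.80 CPM). No treatment of L363-CFZr cells therefore brought these genes to the lowest level of AMO1 cells. For the remaining 7 the lines' ranges met. The share of all genes with such a gap was not computed, so the count of 3 is a description. Between the DMSO groups at 6 h alone, 64.3% of all tested genes did not overlap. CDKN1A also had the widest span within each line. Its group means ran from 60.6 ± 5.90 CPM with HFG for 6 h to 736 ± 41.6 CPM with CFZ for 6 h in AMO1 (SD, n = 3), a 12.1-fold range. In L363-CFZr they ran from 3.39 ± 1.10 CPM with halofuginol for 6 h to 19.6 ± 1.34 CPM with NCP26 for 24 h, a 5.80-fold range. The range was 3.67-fold in AMO1 and 1.71-fold in L363-CFZr for MDM2, and 1.72-fold and 1.27-fold for BTG2. TP53INP1 spanned 6.09-fold and 2.16-fold, SESN1 4.07-fold and 1.52-fold, ZMAT3 5.10-fold and 1.49-fold. The members other than CDKN1A, TP53I3 and EDA2R thus moved over no more than 2.16-fold in L363-CFZr cells.

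In AMO1 cells a 6 h exposure to NCP26 or HFG lowered nearly all of the p53 targets, CDKN1A the most. Against 440, 433 and 390 CPM with DMSO, CDKN1A was read at 67.7, 69.1 and 68.5 CPM with NCP26 and at 62.9, 65.1 and 53.9 CPM with HFG. No treated library came near a control library, and CDKN1A fell by 2.61 ± 0.10 on the log2 scale with NCP26, a 6.11-fold fall (adjusted p = 1.32e-08, edgeR), and by 2.77 ± 0.09 with HFG (adjusted p = 1.64e-12). BTG2 fell with NCP26 (-0.34 ± 0.09, adjusted p = 0.0128) and was not called with HFG (-0.15, 95% interval -0.28 to -0.02). MDM2 was read at 262, 252 and 241 CPM with NCP26 and at 263, 277 and 291 CPM with HFG, all below the 515 to 589 CPM of the controls, and fell by 1.13 ± 0.10 and 0.96 ± 0.07. EDA2R fell from 22.7 to 29 CPM to 7.43, 7.40 and 6.17 CPM with NCP26 and 5.37, 4.80 and 8.13 CPM with HFG, by 1.91 ± 0.19 and 1.99 ± 0.21.

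FDXR, with a function in mitochondrial electron transfer, was read at 33, 29 and 28 CPM with DMSO, at 8.22, 9.25 and 13.6 CPM with NCP26 and at 8.43, 11.5 and 12 CPM with HFG. It fell by 1.51 ± 0.19 and 1.41 ± 0.16. TP53INP1 fell by 1.01 ± 0.14 and 1.03 ± 0.11, SESN1 by 0.75 ± 0.10 and 0.93 ± 0.09 and ZMAT3 by 0.87 ± 0.15 and 1.00 ± 0.12, each with no overlap between treated and control libraries. Of all tested genes, 49.1% with NCP26 and 60.3% with HFG had no overlap either. RRM2B changed least beside BTG2, falling by 0.43 ± 0.13 with NCP26 (adjusted p = 0.0208, edgeR), while its 56.3, 36.5 and 44.9 CPM with HFG overlapped the 49.5, 56.6 and 63.4 CPM of the controls and were not called (-0.28, 95% interval -0.55 to -0.01). The NCP26 calls of BTG2 and RRM2B were lost in some fits that left out a library, DMSO replicate 2 among them in both cases. In all, NCP26 lowered 9 of 9 members tested, where 37.3% of all genes were called and 19.2% were lower. HFG lowered 7 of 9, where 54.3% of all genes were called and 26.6% were lower. The members' medians were -1.01 and -0.995 on the log2 scale, against -0.01 and 0.01 for all tested genes. The treatments of a line and time share their DMSO libraries, so these results are not independent of each other.

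**Figure D2:**
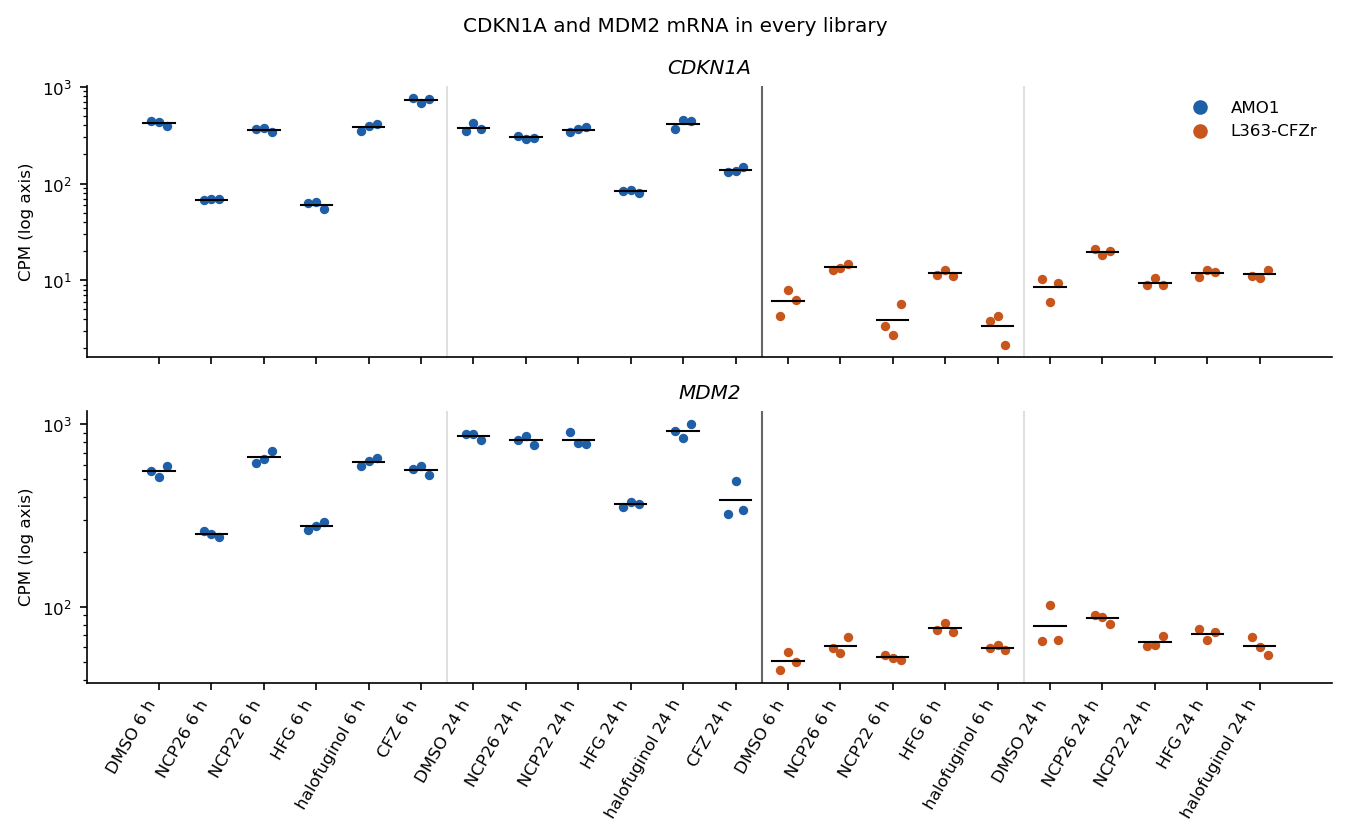
CDKN1A and MDM2 in all 66 libraries, as CPM on a log axis, by treatment and time, with 1 point per library and AMO1 and L363-CFZr drawn apart. CDKN1A in AMO1 cells falls from about the level of the controls (390 to 440 CPM) to 53.9 to 69.1 CPM with NCP26 or HFG at 6 h, while in L363-CFZr cells it stays at or below 20.9 CPM throughout.

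By 24 h the inhibitors had parted in AMO1 cells. CDKN1A was read at 314, 286 and 300 CPM with NCP26, close to but below the 347, 420 and 364 CPM of the controls, and at 84.4, 85.6 and 79.2 CPM with HFG. Its log2 fold change was -0.34 ± 0.06 with NCP26 (adjusted p = 5.39e-06, edgeR) and -2.19 ± 0.08 with HFG (adjusted p = 3.32e-14). MDM2 with NCP26 (821, 859 and 768 CPM) overlapped the controls (887, 881 and 822 CPM) and was not called (-0.08, 95% interval -0.17 to 0.00), whereas with HFG its 352, 377 and 364 CPM lay below all controls (-1.24 ± 0.05). EDA2R and ZMAT3 were not called with NCP26 either (-0.26 and 0.05). Of 9 members tested with NCP26, leaving aside TP53I3, 5 were lower (30.9% of all genes), CDKN1A, BTG2 (-0.25), TP53INP1 (-0.60), SESN1 (-0.41) and FDXR (-1.16), and 1 was higher (29.8% of all genes), RRM2B, where 60.7% of all genes were called in either direction.

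RRM2B rose from 64.1, 71.0 and 69.3 CPM to 88.8, 87.0 and 93.4 CPM with NCP26 at 24 h, by 0.38 ± 0.08 (adjusted p = 8.56e-05, edgeR). TP53I3 was read at 4.03, 3.07 and 2.40 CPM with DMSO and at 6.88, 6.52 and 8.79 CPM with NCP26. It passed the filter on low counts through the NCP26 libraries, where it is high, so it is left out of the counts and its difference of 1.28 on the log2 scale is a description. HFG at 24 h lowered all 9 members tested, from RRM2B (-0.49 ± 0.10) and BTG2 (-0.70 ± 0.05) to FDXR (-1.99 ± 0.21) and CDKN1A, with a median of -1.66, where 59% of all genes were called and 30.5% were lower. In these comparisons the treated libraries and the controls belong to different library sets. A fit of all 66 libraries with a term for the set called BTG2 and TP53INP1 of the members with NCP26, beside 22.1% of all genes. With HFG it kept 8 of the 9 calls (RRM2B -0.31, adjusted p = 0.378, edgeR), beside 28% of all genes. Between these sets the term rests on the AMO1 CFZ 24 h libraries, replicate 2 of which stood apart.

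CFZ, the proteasome inhibitor, had the opposite sign for CDKN1A at 6 h. CDKN1A was read at 763, 688 and 756 CPM, above all controls, and rose by 0.80 ± 0.06 (adjusted p = 3.75e-09, edgeR). MDM2 did not follow, with 572, 593 and 525 CPM inside the range of the controls and a log2 fold change of 0.02 (95% interval -0.11 to 0.15). EDA2R and TP53INP1 were not called (-0.08 and -0.09), and 5 members were lower, namely RRM2B (-0.55), FDXR (-0.51), SESN1 (-0.48), ZMAT3 (-0.37) and BTG2 (-0.17). That made 1 higher and 5 lower of 9 tested, beside 26.9% of all genes called, 14.1% higher and 12.8% lower. The count fell to 3 without DMSO 6 h replicate 1 or without CFZ 6 h replicate 3. After 24 h with CFZ, CDKN1A had fallen to 133, 134 and 148 CPM, below all controls (-1.43 ± 0.12), and 8 of 9 members were lower, where 27% of all genes were called, 14% lower. SESN1 fell the most, from 107, 119 and 109 CPM to 32.9, 29.3 and 31.9 CPM (-1.81 ± 0.11), and BTG2 was not called (-0.27, adjusted p = 0.0899, edgeR). MDM2 was read at 323, 489 and 340 CPM, the highest value in the replicate that stood apart. Without that library its log2 fold change was -1.37 instead of -1.15, BTG2 was called (-0.29, adjusted p = 0.000215, edgeR), and 9 members were called.

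NCP22 and halofuginol moved few members in AMO1 cells. At 6 h NCP22 had 4 of 9 called, MDM2 (0.27) and ZMAT3 (0.35) higher and CDKN1A (-0.21) and FDXR (-0.49) lower, where 13.5% of all genes were called, 7.42% higher and 6.08% lower. These calls were lost with an offset for GC content, which left 0, and across 10537 genes the log2 fold change correlated with GC content at -0.512 in this comparison. They also fell to 0 without DMSO 6 h replicate 2 or NCP22 6 h replicate 3. Halofuginol at 6 h had 0 of 9 members called by edgeR, with 3 at an unadjusted p under 0.05 and 1 called by DESeq2, and 3.62% of all genes called. CDKN1A was read at 351, 397 and 418 CPM with halofuginol, overlapping the controls (-0.11, 95% interval -0.24 to 0.03). At 24 h edgeR called 0 of 10 members with NCP22 (1 at an unadjusted p under 0.05, 0 by DESeq2) and 0 of 10 with halofuginol (3 and 0), where 0% and 0.183% of all genes were called. The NCP22 libraries at 24 h and their controls come from different sets. Between them the test called 0 of 10781 genes, with 638 at an unadjusted p under 0.05 and 2 called by DESeq2. The effect of the set was not tested by this comparison. The list's 95% intervals with these compounds at 24 h reached from -0.65 (EDA2R with NCP22) to 0.39 (FDXR with halofuginol), leaving aside TP53I3.

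**Figure D3:**
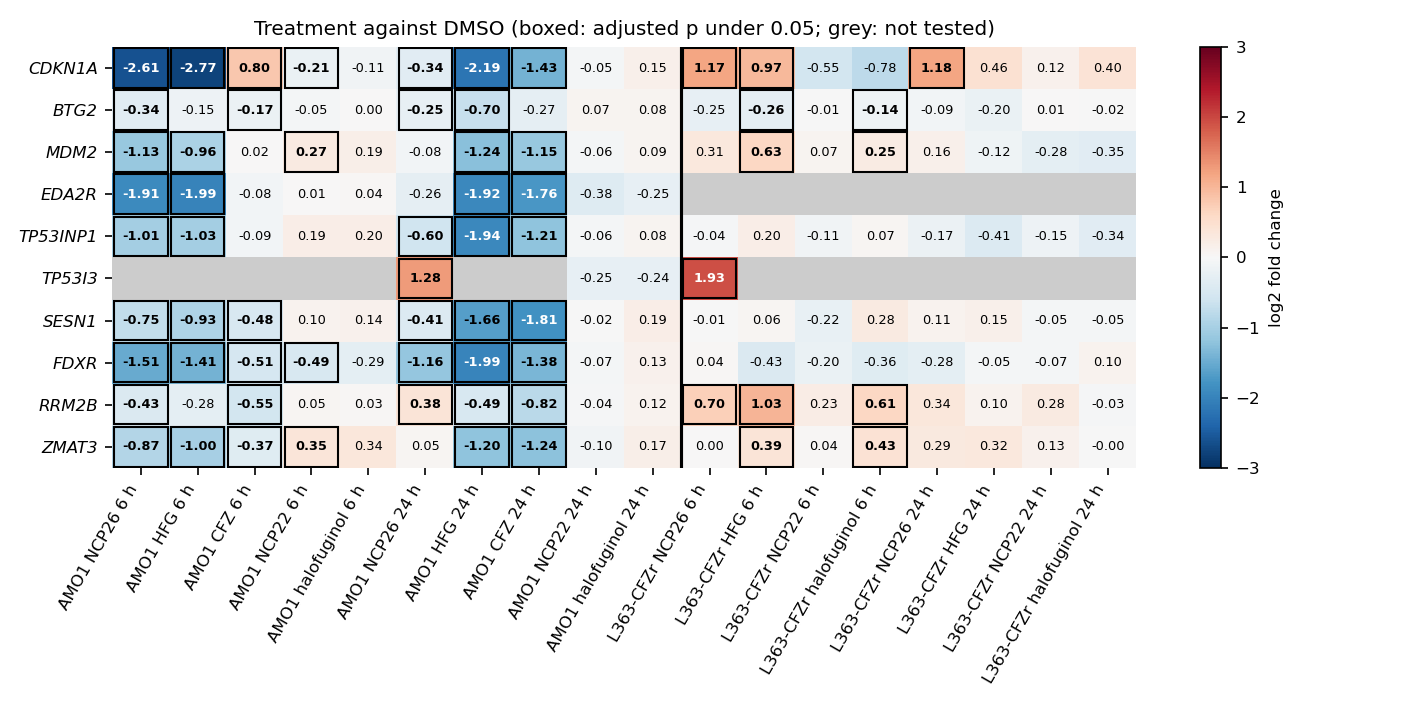
Log2 fold change of each p53 target against DMSO of the same line and time, with 1 column per treatment, time and line and a box around values with an adjusted p under 0.05, and grey where a gene was too low to be tested. The AMO1 columns of NCP26 at 6 h, HFG at both times and CFZ at 24 h are nearly all lower, whereas the L363-CFZr columns hold few calls, most of them higher.

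In L363-CFZr cells the same inhibitors raised CDKN1A from its low level. It was read at 12.8, 13.4 and 14.6 CPM with NCP26 for 6 h and at 11.4, 12.9 and 11.1 CPM with HFG, all above the 4.27, 7.83 and 6.22 CPM of the controls. The log2 fold change was 1.17 ± 0.22 with NCP26 (adjusted p = 0.00544, edgeR) and 0.97 ± 0.23 with HFG (adjusted p = 0.000946). The HFG libraries lie in another set than their controls. With a term for the set CDKN1A was no longer called there (0.05, adjusted p = 0.989, edgeR). Between these sets the term rests on L363-CFZr NCP22 6 h, with 2 libraries in set 2 and 1 in set 3. The value therefore hangs on that 1 library, at a low level of CDKN1A. MDM2 was read at 59.3, 55.9 and 68.7 CPM with NCP26, which overlapped the controls (45, 56.5 and 50.0 CPM) and was not called (0.31, 95% interval 0.05 to 0.56). With HFG its 74.7, 81.4 and 73.3 CPM lay above them (0.63 ± 0.10, adjusted p = 7.66e-06).

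RRM2B rose with both. Its controls were read at 19.1, 23.8 and 21.2 CPM, the NCP26 libraries at 36.2, 24.9 and 41.4 CPM and the HFG libraries at 42.4, 42.2 and 43.2 CPM, an increase of 0.70 ± 0.20 (adjusted p = 0.0303, edgeR) and 1.03 ± 0.12 (adjusted p = 1.53e-07). The NCP26 value of 24.9 CPM lay just above the controls. TP53I3 was read at 2.83, 2.72 and 2.13 CPM with NCP26 against 0.986, 0.340 and 0.644 CPM, and as it was tested only because of the NCP26 libraries it is left out of the count. ZMAT3 was called higher with HFG (0.39) and BTG2 lower (-0.26), while TP53INP1, SESN1 and FDXR were not called with either compound. With a term for the set, MDM2, RRM2B and BTG2 kept their HFG calls and ZMAT3 did not, where 21.9% of all genes were called. Log2 fold changes with HFG correlated with GC content at -0.567 across 10325 genes. With an offset for GC content TP53INP1 and SESN1 were called lower with HFG, where 38.4% of all genes were called. EDA2R had 8 counts in all 3 NCP26 libraries together and 3 in the HFG libraries, against 0 in the controls, too few to be tested. The NCP26 effect on RRM2B was not called with an offset for GC content (0.46). NCP26 thus had 2 of 8 members higher at 6 h, where 18.8% of all genes were called and 9.81% were higher, and HFG 4 higher and 1 lower of 8, where 54.5% were called, 26.9% higher and 27.5% lower. CDKN1A alone was left of the NCP26 calls without DMSO 6 h replicate 2 or 3 or NCP26 6 h replicate 1, and without NCP26 6 h replicate 2 BTG2 (-0.24) and MDM2 (0.38) were called as well.

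At 24 h CDKN1A was the member called in L363-CFZr cells. NCP26 gave 20.9, 18.2 and 19.9 CPM against 10.4, 5.97 and 9.29 CPM, with no overlap, a log2 fold change of 1.18 ± 0.22 (adjusted p = 0.0224, edgeR). It was the single call of 8 members, where 7.09% of all genes were called and 2.71% were higher. The call was lost without DMSO 24 h replicate 3 or any of the 3 NCP26 libraries (adjusted p up to 0.109, edgeR). Without DMSO 24 h replicate 2, the library that stood apart, it held at 1.00 (adjusted p = 0.00128, edgeR) and MDM2 was called too, at 0.40 (adjusted p = 0.00678). That library had the highest MDM2 value of the controls, 103 CPM against 65.4 and 66.2 CPM in the others, and the NCP26 libraries lay between, at 90.5, 88.4 and 80.4 CPM. HFG at 24 h had 0 of 8 members called by edgeR (0 at an unadjusted p under 0.05, 0 by DESeq2), beside 1.17% of all genes. Its CDKN1A values of 10.9, 12.7 and 12.2 CPM stood at 0.46 (95% interval -0.01 to 0.93), and without DMSO 24 h replicate 2 BTG2 was called (-0.22, adjusted p = 0.00433, edgeR).

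NCP22 had 0 of 8 members called by edgeR in L363-CFZr cells at 6 h and 0 of 8 at 24 h, as had halofuginol at 24 h, and in each of these 3 comparisons 0% of all genes were called. DESeq2 called 1, 0 and 0 genes there, and 666, 213 and 410 genes had an unadjusted p under 0.05. CDKN1A was read at 3.36, 2.69 and 5.62 CPM with NCP22 for 6 h and at 8.96, 10.5 and 8.83 CPM for 24 h, overlapping the controls both times. Halofuginol at 6 h had 3 members higher, RRM2B (0.61), ZMAT3 (0.43) and MDM2 (0.25), and BTG2 lower (-0.14), of 8 tested and beside 25.8% of all genes called, 13.6% higher and 12.2% lower. These libraries and their controls belong to different sets, log2 fold changes correlated with GC content at -0.713 across 10367 genes, and an offset for GC content left 0 of the 4 calls.

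The difference between the lines was tested itself, as the interaction of line and treatment in a fit of both lines. With NCP26 for 6 h the effect was more positive in L363-CFZr for 6 of the 8 members tested beside EDA2R, where 2.71% of all genes were called and 1.96% were more positive. CDKN1A differed most among members with counts in both lines, by 3.77 ± 0.20 on the log2 scale (adjusted p = 2.18e-08, edgeR), as it had fallen in AMO1 and risen in L363-CFZr. FDXR differed by 1.53 ± 0.28, MDM2 by 1.42 ± 0.15, RRM2B by 1.11 ± 0.24, TP53INP1 by 0.95 ± 0.22 and SESN1 by 0.72 ± 0.18. The interaction of EDA2R, 5.90, rests on counts of 0 in the L363-CFZr controls, where no fall could be seen. It depends on the prior count, is no measure of size, and is left out of the counts, as are those with HFG. ZMAT3 (0.86, adjusted p = 0.0893, edgeR) and BTG2 (0.07, 95% interval -0.16 to 0.29) were not called. Both lines' effects lie within a library set here, although the sets differ. With EDA2R counted, the 7 calls fell to 4 without AMO1 DMSO replicate 3, L363-CFZr DMSO replicate 1 or 3, or L363-CFZr NCP26 replicate 1 or 3, and CDKN1A, MDM2 and FDXR were called in every one of these fits.

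HFG gave a like picture at 6 h, with 7 of the 8 members tested beside EDA2R more positive in L363-CFZr, where 20.7% of all genes were called and 11.3% were more positive. CDKN1A differed by 3.75 ± 0.21, MDM2 by 1.59 ± 0.12, ZMAT3 by 1.39 ± 0.18, RRM2B by 1.32 ± 0.19 and TP53INP1 by 1.23 ± 0.16. SESN1 (0.99) and FDXR (0.98) followed, and BTG2 was not called (-0.11). At 24 h all 8 members tested with HFG beside EDA2R were more positive in L363-CFZr, where 16.9% of all genes were called and 8.06% were more positive. The values were 2.62 for CDKN1A, 1.92 for FDXR, 1.81 for SESN1, 1.53 for ZMAT3, 1.52 for TP53INP1, 1.11 for MDM2, 0.58 for RRM2B and 0.48 for BTG2. NCP26 at 24 h differed for CDKN1A (1.48 ± 0.21, adjusted p = 0.00251, edgeR). That was 1 of 8 members, leaving aside EDA2R and TP53I3, beside 5.41% of all genes called and 2.97% more positive. Without L363-CFZr DMSO 24 h replicate 2 there were 4, with MDM2 at 0.46, TP53INP1 at 0.58 and SESN1 at 0.45. Unlike NCP26 at 6 h, these interactions hold effects that cross library sets, in L363-CFZr at 6 h and in AMO1 at 24 h. With a term for the set, the HFG interaction called 6.67% of all genes at 6 h and 13.1% at 24 h. The counts of members called, EDA2R included, then kept within 1.5 times.

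**Figure D4:**
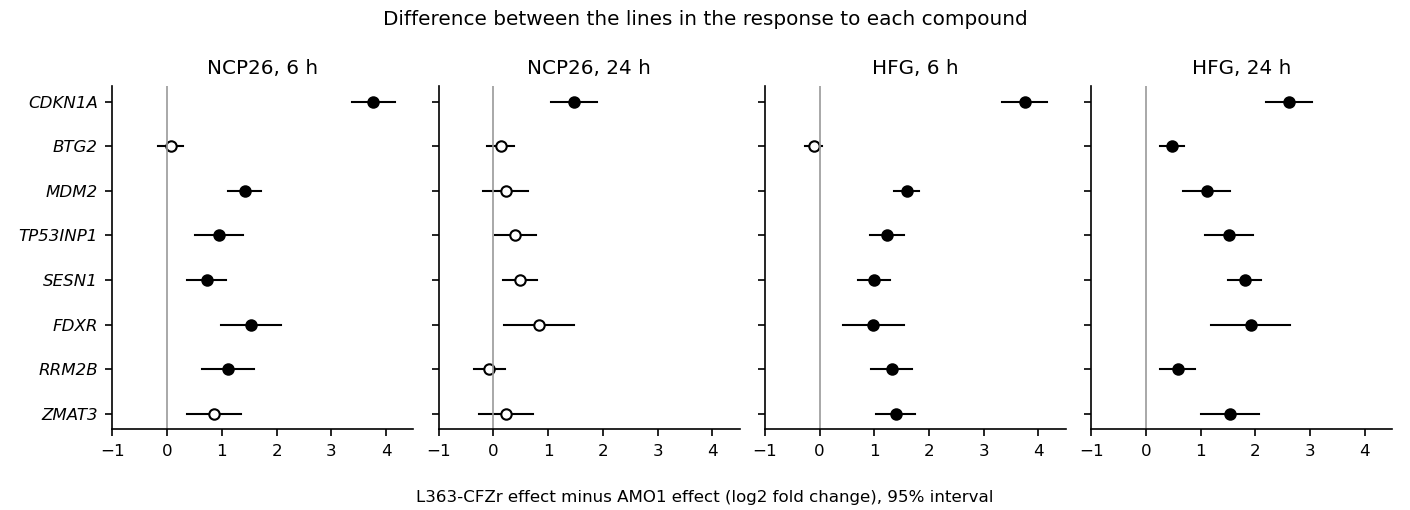
Difference of the drug effect between the lines (L363-CFZr minus AMO1, log2) for NCP26 and HFG at 6 h and 24 h, with lines for the 95% interval and filled points for an adjusted p under 0.05. EDA2R and TP53I3 are left out. CDKN1A lies highest in each panel, from 1.48 to 3.77, and with NCP26 at 24 h it is the only filled point.

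Compounds of related structure were compared at the same dose and time in 8 pairs, 4 in each line. NCP26 against its parent NCP22 in AMO1 cells at 6 h had 9 of 9 members lower, beside 24.7% of all genes called and 12.2% lower, from CDKN1A (-2.37 ± 0.09) and EDA2R (-1.89 ± 0.19) to BTG2 (-0.25 ± 0.08). HFG against halofuginol, its alcohol, also had 9 of 9 lower at 6 h (51.7% of all genes called, 26.1% lower) and 9 of 9 at 24 h (56.6% called, 28.7% lower), with CDKN1A at -2.67 ± 0.08 and -2.32 ± 0.09. At 24 h NCP26 and NCP22 differed in 6 of 9 members, leaving aside TP53I3 (52% of all genes called, 26.3% higher and 25.7% lower). FDXR (-1.07), TP53INP1 (-0.52), SESN1 (-0.37), BTG2 (-0.30) and CDKN1A (-0.26) were lower with NCP26, and RRM2B (0.45) higher. MDM2 did not differ beyond error (95% interval -0.15 to 0.14). Both sides of these AMO1 pairs lie in the same library set.

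In L363-CFZr cells the pairs differed in the opposite direction for CDKN1A. NCP26 against NCP22 gave 1.72 ± 0.26 at 6 h (adjusted p = 0.0013, edgeR). It was the single call of 8, leaving aside TP53I3, beside 20.4% of all genes called and 9.96% higher. At 24 h the value was 1.05 ± 0.17 (adjusted p = 0.000249, edgeR), with MDM2 at 0.44, 2 of 8 beside 34.1% called and 16.2% higher. Without NCP26 6 h replicate 2 the count at 6 h was 4, TP53I3 included where tested. HFG against halofuginol at 6 h, both in set 3, gave 1.74 ± 0.23 for CDKN1A (adjusted p = 3e-07, edgeR), 0.42 for RRM2B and 0.37 for MDM2, with BTG2 lower (-0.12), 4 of 8 members beside 47.3% of all genes called, 23.1% higher and 24.2% lower. At 24 h CDKN1A did not differ beyond error between HFG and halofuginol (0.05, 95% interval -0.34 to 0.44), and BTG2 was the single call of 8 (-0.19), beside 21.9% of all genes called and 12.3% lower. That call was lost without HFG replicate 2 or 3 or halofuginol replicate 2, and 2 members were called without halofuginol replicate 1.

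Other p53 targets were called in both directions in AMO1 cells, as were genes at large. Of the 43 genes of that list that were tested, NCP26 lowered 8 and raised 5 at 6 h. Of all genes, 37.3% were called there, 19.2% lower and 18.1% higher. HFG lowered 17 and raised 7, where 54.3% of all genes were called, 26.6% lower and 27.7% higher. SFN, which encodes the checkpoint protein 14-3-3 sigma, fell by 2.09 ± 0.29 with NCP26 and 2.71 ± 0.24 with HFG, and POLH, a translesion DNA polymerase, by 1.51 ± 0.15 and 1.36 ± 0.13, while PHLDA3 fell by 1.32 ± 0.14 with HFG. PMAIP1, which encodes the BH3-only protein NOXA and is also a target of the integrated stress response, rose by 1.23 ± 0.14 with NCP26. At 24 h NCP26 had 22 of 43 higher and 11 lower, beside 29.8% and 30.9% of all genes, with SESN2 (1.63), a sestrin, and GDF15 (1.57) higher and SFN lower, whereas HFG had 4 higher, PMAIP1 (1.95) among them, and 22 lower, such as SFN (-4.25) and DDB2 (-1.60), a DNA damage sensor, beside 59% of all genes called. CFZ raised 5, with SESN2 (1.46), PMAIP1 (1.42) and GADD45A (1.26) ahead, and lowered 16 at 6 h, and it raised 1 and lowered 19 at 24 h, beside 26.9% and 27% of all genes called. DDB2 (-1.84), SFN (-1.71) and, outside that list, TP63 (-2.25) fell the most with CFZ at 24 h. The list's median log2 fold change per treatment ranged in AMO1 cells from -0.45 (CFZ, 24 h) to 0.24 (NCP26, 24 h).

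In L363-CFZr cells NCP26 raised 9 and lowered 2 of 38 such genes at 6 h, beside 18.8% of all genes called, and HFG raised 15 and lowered 6 of 37, beside 54.5%. SESN2 rose by 2.82 ± 0.12 and 2.84 ± 0.09, PMAIP1 by 2.21 ± 0.18 and 2.38 ± 0.17, and TNFRSF10B, a death receptor for TRAIL, by 1.54 ± 0.11 and 1.61 ± 0.09. Whether p53 or another transcription factor moved the genes of this list, in either line, was not tested. At 24 h SESN2 rose by 2.98 with NCP26 and 2.09 with HFG, and with NCP26 TNFRSF10B rose by 1.38 and E2F7, a repressor of cell cycle genes, fell by 1.37. MDM4 rose at 6 h in AMO1 cells with NCP26 (0.74) and HFG (0.90) and in L363-CFZr cells (0.52 and 0.72), and at 24 h in AMO1 cells (0.33 and 0.23).

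Among all genes of at least 5 CPM, the group means of log2 CPM most like those of CDKN1A over the 12 AMO1 groups were PIM2, PGAM1 and EDA2R (Pearson's r = 0.950, 0.938 and 0.935). Those most like MDM2 were MOB1A, EDA2R and TNFRSF10D (0.959, 0.957 and 0.953). Over the 10 L363-CFZr groups CDKN1A lay nearest to RXRB, STC2 and DNAJB2 (0.969, 0.967 and 0.966) and MDM2 to XIAP, TNKS2 and CEP350 (0.990, 0.983 and 0.980). EDA2R is the only member of the 10 among these neighbours. Groups share library sets and depth, so these values are a description.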

How the data were processed

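Polyadenylated RNA of AMO1 and L363-CFZr cells was made into directional libraries by the authors, who assigned the reads with kallisto to transcripts. The paper's methods name GRCh38 and the labels hg19, the kallisto version and the step from transcripts to genes being not given in the sources used here. The deposited values are raw counts per gene, whole numbers without normalization. Of 20167 Ensembl identifiers, 19299 (95.7%) had a symbol in GENCODE v44. The p53 targets and gene lists were chosen with earlier results of these data known.

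Counts were tested in R 4.3.3 with edgeR 4.0.16 (filterByExpr set to 10 counts per library and 15 in total, scaling by TMM, quasi-likelihood F test, Benjamini-Hochberg adjustment over all tested genes, threshold 0.05), with the 6 libraries compared in a fit and 12 for each interaction. SE was obtained from the size of each log2 fold change over √F, and 95% intervals span 1.96 SE. CPM were scaled by TMM over all 66 libraries. Of other genes, MDM4 and the 3 listed genes with the largest called change at a mean of at least 5 CPM were named. The rule also names an item that is not reported here. The script was tested on simulated data. DESeq2 1.42.0, limma 3.58.1 and Python 3.11.15 with numpy 2.4.6, pandas 2.3.3 and matplotlib 3.10.9 served for alternatives, sequences and figures. Over all 20167 genes, a wider set than the genes of at least 5 CPM used for single libraries above, pairs of replicates gave log2 CPM correlations of 0.975 to 0.997. None was identical, and 3 against 3 libraries allow no exact permutation p below 0.1. Replicate numbers were checked as pairs. The correlations of same-numbered deviations ran from -0.38 to 0.36, and in 0 of 28 comparisons were all above 0.1, so the numbers were not used as pairs.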

Additional observations from a re-analysis of the deposited data

Results flagged for a closer look

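The interaction of line and treatment was called by edgeR's quasi-likelihood F test, adjusted by the Benjamini-Hochberg method, for 25 values. Each is the log2 fold change in L363-CFZr minus that in AMO1. With NCP26 for 6 h these were CDKN1A (3.77), MDM2 (1.42), EDA2R (5.90), TP53INP1 (0.95), SESN1 (0.72), FDXR (1.53) and RRM2B (1.11). With NCP26 for 24 h it was CDKN1A (1.48). With HFG for 6 h these were CDKN1A (3.75), MDM2 (1.59), EDA2R (5.04), TP53INP1 (1.23), SESN1 (0.99), FDXR (0.98), RRM2B (1.32) and ZMAT3 (1.39). With HFG for 24 h these were CDKN1A (2.62), BTG2 (0.48), MDM2 (1.11), EDA2R (3.59), TP53INP1 (1.52), SESN1 (1.81), FDXR (1.92), RRM2B (0.58) and ZMAT3 (1.53). The EDA2R values depend on the prior count, since L363-CFZr libraries held at most a few of its counts, and give no size. EDA2R was tested through its AMO1 libraries, and no fall could be seen in L363-CFZr. Its values are therefore listed as flagged and not read as a difference between the lines. For every gene named here the mean DMSO level of the same time was higher in AMO1 than in L363-CFZr, for BTG2 without a call by the test, and the part of that level in the differences was not tested.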

How the results depend on the processing

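The counts of members called, EDA2R and TP53I3 included where tested, kept within 1.5 times with DESeq2's size factors in all 32 comparisons. Under the other settings most did, with these exceptions, and except where stated the cause was not tested. Shares of all genes called stand in parentheses, over unfiltered genes for the Wald test and for fits without a filter. In AMO1 cells, NCP22 at 6 h had 4 members called (13.5%), and 0 with a GC content offset (5.19%). It had 2 with the DESeq2 Wald test (3.95%), 0 with all 66 libraries in a fit (6.9%) and 0 with a set term added (7.19%). Halofuginol at 6 h had 0 (3.62%), and 2 without a filter on low counts (4.26%) and 1 with the Wald test (1.19%). NCP26 at 24 h had 7 (60.7%), and 2 with the set term (22.1%). In L363-CFZr cells, NCP26 at 6 h had 3 (18.8%), namely CDKN1A, TP53I3 and RRM2B. Both fits of all libraries had 5 (27.9%, and 28.1% with the set term), these 3 with BTG2 and EDA2R. EDA2R is tested in those fits only through its AMO1 libraries, and TP53I3 is left out of the count in the results above. HFG at 6 h had 5 (54.5%), and 3 with the set term (21.9%). Halofuginol at 6 h had 4 (25.8%), and 0 with the GC offset (1.59%), 2 with the Wald test (7.22%), 2 with all libraries (10.2%) and 0 with the set term (2.47%). HFG at 24 h had 0 (1.17%), and 2 in both fits of all libraries (20.2%, and 20.5% with the set term). NCP26 against NCP22 at 6 h had 1 (20.4%), and 2 without the filter (15.8%), 3 with all libraries (29.2%) and 2 with the set term (20.1%). The NCP26 interaction at 24 h had 1 (5.41%), and 3 with all libraries (15.7%).

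With the replicate numbers as a block, which do not pair the samples, L363-CFZr cells with NCP26 had 1 member called at 6 h in place of 3. At 24 h they had 0 in place of 1. The block called 8.95% of all genes at 6 h in place of 18.8%, and 1.46% at 24 h in place of 7.09%. The other 30 counts kept within 1.5 times.

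Among values called with or without the GC offset, the sign turned in L363-CFZr cells at 6 h alone. TP53INP1 and SESN1 with HFG, not called before, were called lower with the offset, at -0.22 and -0.31. MDM2 with halofuginol, called higher before, became -0.0017. Turns of sign among values called in neither fit were not counted.

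Leaving out 1 library turned no sign of a called member. In AMO1 cells the counts then ran from 7 to 9 (NCP26, 6 h), 7 to 8 (HFG, 6 h), 3 to 5 (CFZ, 6 h), 0 to 5 (NCP22, 6 h), 0 to 3 (halofuginol, 6 h), 7 to 9 (NCP26, 24 h) and 8 to 9 (CFZ, 24 h), and stayed at 9 (HFG, 24 h). NCP22 at 6 h had 1 without DMSO replicate 1 or NCP22 replicate 1, 2 without NCP22 replicate 2, and 0 without DMSO replicate 2 or NCP22 replicate 3, while halofuginol had 3 without DMSO replicate 3. In L363-CFZr cells they ran from 1 to 5 (NCP26, 6 h), 4 to 6 (HFG, 6 h), 1 to 5 (halofuginol, 6 h), 0 to 2 (NCP26, 24 h) and 0 to 1 (HFG, 24 h). Halofuginol at 6 h had 1 without its replicate 1 or 3 or DMSO replicate 3, and 2 without its replicate 2. Between lines they were 8 at 6 h and 8 to 10 at 24 h. The pairs of compounds gave 8 to 9, 7 to 8, 7 to 8 and 9 in AMO1 cells and 1 to 4 (NCP26 and NCP22, 6 h), 3 to 5 (HFG and halofuginol, 6 h), 2 (24 h) and 0 to 2 (24 h) in L363-CFZr cells. The interactions gave 4 to 8 (NCP26, 6 h), 1 to 4 (NCP26, 24 h), 6 to 8 (HFG, 6 h) and 7 to 9 (HFG, 24 h). The libraries that move a count are named beside the result. EDA2R in L363-CFZr cells was at or near a count of 0, where a fall is not detectable at this depth.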
